A study of Mus musculus with 123 samples.

Results

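Single αMHC-GFP+ cells of the embryonic mouse heart at E12.5 (20 cells; E stands for embryonic day) were compared with those at E9.5 (14 cells), using only cells whose titles start with C. These 34 cells are part of 123 deposited cells, of which the others have other title prefixes or come from newborns, and they were chosen by title because both groups were then read to a like depth. The C cells held 268301 to 588443 counts at E9.5 (median 415428) and 148258 to 738496 at E12.5 (median 389394), with 3811 to 5454 and 2819 to 5749 genes found per cell. At both stages the cells came from the αMHC-GFP line, in which the promoter of the α myosin heavy chain gene drives green fluorescent protein. Hearts were digested with collagenase type I, GFP+ cells were sorted and captured singly on a Fluidigm C1 system, and their RNA was amplified by SMART-Seq. A cell was therefore chosen by the reporter, and a GFP+ cell need not hold Myh6 RNA itself. Nothing ties a cell to an animal, litter, chip or library preparation, so each stage is 1 sample of pooled cells, and the cells are not replicates. No difference below has a replicate check, and stage cannot be told apart from litter, chip or library preparation. Levels are CPM, a gene's counts as parts per 1000000 of its cell's own total, and ratios compare the mean CPM of the cells at E12.5 with that at E9.5. Intervals are 95% and are given for shares of cells. They treat the cells as independent draws from the pooled sample and cover no spread between animals.

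Between these stages the mouse heart turns from a looping tube into an organ with chambers, septa and a thickening wall of trabeculae. Young cardiomyocytes beat and divide at the same time, and they rely largely on glycolysis while their mitochondria are few and simple in structure. Respiration grows as the mitochondria mature, and the contractile apparatus adds later forms of its proteins. In the same period many tissues lose a set of embryonic growth regulators, among them the RNA-binding protein Lin28a and genes held down by let-7 microRNAs, whose maturation Lin28a blocks.

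The cells were first checked against their label. The summed level of the cardiomyocyte markers ran from 36024 to 89893 CPM in the 20 E12.5 cells, with a mean of 52934 CPM. At E9.5 it ran from 137 to 68328 CPM, with a mean of 38520 CPM, because 3 cells were nearly without these RNAs. In E9.5 cells 3, 5 and 8 the sum of Ttn, Actc1, Myh6 and Tnnt2 was 4.35, 75.9 and 176 CPM, against 15813 to 46759 CPM in the other 11 E9.5 cells and 11906 to 54626 CPM at E12.5. These 3 cells were not shallow, with 459811, 342406 and 386842 counts. Cells 3 and 8 held Mbnl3, a regulator of splicing, at 1377 and 1510 CPM, and the guidance ligand Efna5 at 1094 and 1957 CPM, while cell 5 held the connexin Gja1 at 1735 CPM and Tagln2 at 3519 CPM. Markers of other cell types were partly in these cells. The summed endothelial markers averaged 308 CPM over the 14 E9.5 cells and 75.4 CPM over the 11, against 3.42 CPM at E12.5. E9.5 cell 5 alone held 3432 CPM of them, while cells 3 and 8 held 52.2 and 0 CPM. The summed neural crest markers averaged 402, 38.8 and 122 CPM, and those of fibroblasts and cushion mesenchyme 139, 13.0 and 49.5 CPM, in the same order. Erythroid markers were at 0 in every E12.5 cell and in all 11 E9.5 cells, and macrophage markers, at 0 in the 3 cells, averaged 20.5 CPM in E9.5 cells and 11.6 CPM in E12.5 cells. Markers of the progenitors known as the second heart field averaged 871 CPM over the 14 E9.5 cells, 898 CPM over the 11 and 230 CPM over the E12.5 cells, epicardial markers 114, 77.3 and 167 CPM, and smooth muscle markers 4064, 5007 and 3115 CPM. Results are given with and without the 3 cells wherever they matter.

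The mix of sexes differed as well. Xist, expressed from the inactive X chromosome, was found without Y-linked RNA in 8 of 14 E9.5 cells and 5 of 20 E12.5 cells, and Y-linked RNA (Ddx3y, Eif2s3y, Uty or Kdm5d) without Xist in 5 and 12. No cell held both, and 1 and 3 cells held neither. The ratio of Xist was −2.65 on the log2 scale, and −3.35 without E12.5 cell 1. No pair of cells was close to identical, since the highest correlation across genes was 0.657 for any pair of E9.5 cells and 0.636 for any pair of E12.5 cells. The median pair reached 0.524 within E9.5, 0.515 within E12.5 and 0.487 between the stages. Without the 3 cells it was 0.549 within E9.5 and 0.503 between the stages. By this measure cells of 1 stage differed among themselves nearly as much as from cells of the other. How far genes missed in single cells lower these values was not tested.

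A gene was compared where the mean of both stage means was 10 CPM or more and it had a count in 25% or more of the 34 cells. Of 6076 such genes, 1052 were 2-fold or more higher at E12.5, which is 17.3% of the genes, and 1114 were 2-fold or more lower, which is 18.3%. Without the 3 E9.5 cells the counts were 1181 (19.4%) and 1059 (17.4%) of 6097 genes. The median log2 ratio was −0.01 with all cells and 0.05 without the 3. At 4-fold or more, 321 genes were higher and 350 lower. In the authors' length-scaled TPM the median ratio was −0.18, and the split was 756 higher against 1231 lower. For no gene did all 20 E12.5 cells lie above or below all 14 E9.5 cells. Without the 3 cells 1 gene, Rps18, had groups that did not overlap. In the plot of mean levels the genes apart by 2-fold or more reach from 14.4 to 18811 CPM on the mean of the higher stage.

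**Figure D1:**
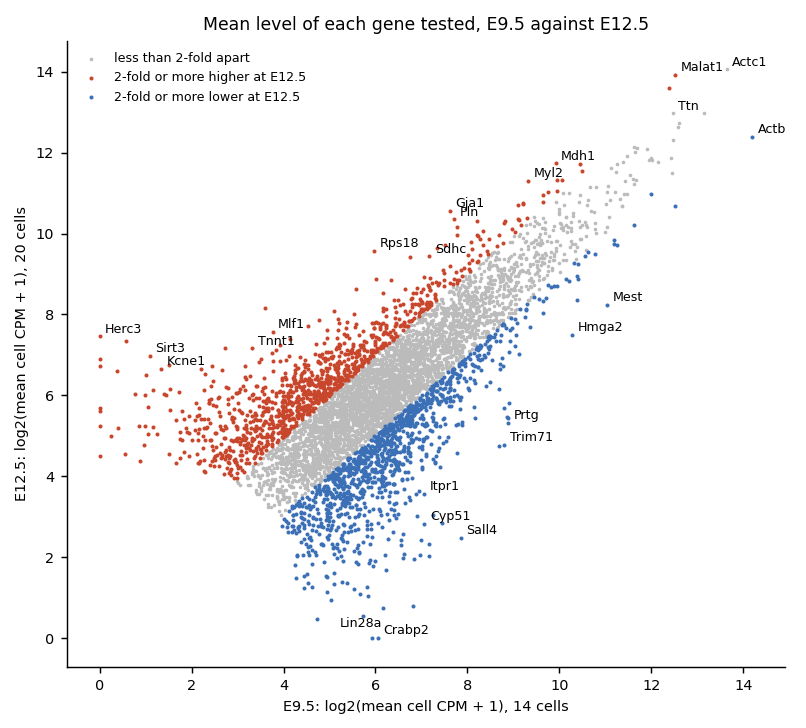
Mean level of the 6076 genes compared, as log2(mean CPM + 1), at E9.5 (x axis, 14 cells) and E12.5 (y axis, 20 cells), 1 point per gene. The 1052 genes 2-fold or more higher at E12.5 lie above the diagonal and the 1114 lower lie below it, with Lin28a and Crabp2 on the x axis at 0 for E12.5.

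Read by gene list, the C cells stood higher at E12.5 in genes of the mitochondrion and lower in embryonic growth regulators and in cholesterol synthesis. The 36 lists were chosen with earlier results of these data known, so their counts describe the data and test nothing. The highest list medians were those of ion channels and pumps (1.58 on the log2 scale, 8 genes), metabolic regulators (1.43, 11 genes), respiratory complex IV (1.14, 13 genes), the citrate cycle (1.1, 23 genes) and complex I (1.02, 36 genes). The lowest was that of the oncofetal genes, at −2.41 over 12 genes, followed by smooth muscle genes at −0.82 and cholesterol synthesis at −0.79, both over 14 genes. The order changed without the 3 E9.5 cells. Ion channels (1.23) and metabolic regulators (1.05) were then followed by fatty acid oxidation (0.99), the citrate cycle (0.98), complex I (0.90) and complex IV (0.87). Cholesterol synthesis (−1.09) then lay below smooth muscle genes (−0.90), with the oncofetal genes still lowest (−1.49). Some lists of general cell machinery stayed close to the median of all genes: 34 proteasome genes had a median of −0.02, 33 splicing regulators 0.00 and 43 genes of DNA methylation and chromatin −0.02 (each of these medians changes sign with the scaling or the cells left out). Others lay further off, at −0.69 for 30 genes of the endoplasmic reticulum and secretion and −0.20 for 37 translation factors. The mitochondrial and cytosolic ribosome lists, of 74 genes each, had 0.44 and 0.30.

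**Figure D2:**
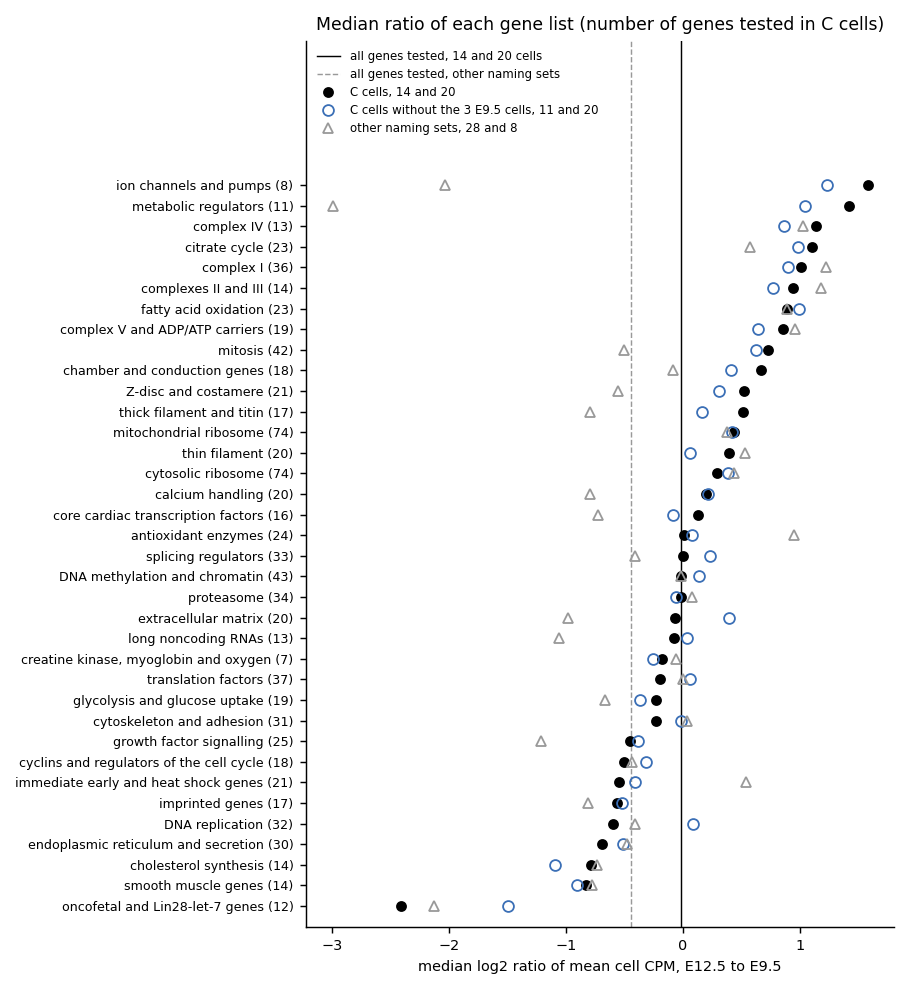
Median log2 ratio of mean CPM, E12.5 to E9.5, of each of the 36 gene lists (number of genes compared in brackets), in all C cells (filled), without the 3 E9.5 cells (open circles) and in cells of other title prefixes (triangles). Lines mark the medians of all genes, −0.01 for the C cells and −0.44 for the other prefixes, and the oncofetal list lies lowest in C cells at −2.41.

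The oncofetal genes were the list most unlike between the stages. The summed level of the list ran from 1524 to 8728 CPM at E9.5 (median 3073) and from 165 to 2034 CPM at E12.5 (median 889), and 2 of the 14 E9.5 cells lay below the highest E12.5 cell. Of 12 genes compared, 7 were 2-fold or more lower at E12.5 and none was 2-fold higher. Without the 3 E9.5 cells 5 of 10 were lower and the median was −1.49. The median turned on single cells more than most, since it was −1.23 without E9.5 cell 11. Several members are known targets of let-7 microRNAs, which were not measured here. The mature sequences below, from RefSeq, are shown because all 9 members of the family share the seed in capitals (bases 2 to 8), of which 3 are printed.
mmu-let-7a-5p: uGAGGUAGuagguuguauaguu
mmu-let-7i-5p: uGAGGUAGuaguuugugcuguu
mmu-miR-98-5p: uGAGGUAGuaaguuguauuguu
The letters complementary to this seed, CTACCTC, stand in the longest annotated 3′ UTR (GENCODE) of 9 of the 12 oncofetal genes. They stand in 529 of 5458 compared genes with a 3′ UTR (9.69%). The list was built around let-7 and Lin28a, so the high share follows from its choice, and its 3′ UTRs were long (median 2894.5 bases against 1234.5). Among all genes the share was nearly the same for those 2-fold higher at E12.5, 92 of 933 (9.86%), and those 2-fold lower, 103 of 1012 (10.2%). The first such match, in capitals, is shown for the 5 genes of the list described next. A match of these letters is a description of the sequence, not evidence of pairing.
Sall4: agggctttaatttatCTACCTCaatta
Lin28a: gcacagcctgttgaaCTACCTCatttt
Trim71: aacattgcctaagtcCTACCTCagctt
Hmga2: gccgacattcaatttCTACCTCagcat
Prtg: ccctctgctgaatagCTACCTCagttt

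Sall4 (chr2:168748332-168767201), a zinc finger factor of stem and progenitor cells, was found in all 14 E9.5 cells at 4.33 to 600 CPM (median 213). At E12.5 it was found in 3 of 20 cells at up to 72 CPM, and the interval on that share of cells is 3.21 to 37.9%. The groups overlapped through E9.5 cells 2, 8 and 9 and E12.5 cells 6 and 12. The means were 230 and 4.59 CPM, a log2 ratio of −5.65 that became −7.78 without E12.5 cell 12 and was −5.62 without E9.5 cells 3, 5 and 8. Lin28a (chr4:134003330-134019196) was found in 9 of 14 E9.5 cells, at up to 360 CPM with a mean of 59.6 CPM, and had no count in any of the 20 E12.5 cells. That count of 0 allows a share of cells with a read of up to 16.8%, which covers the drawing of cells only and is no limit on cells that express the gene at a level too low to be read. Against a floor of 3 counts over the group Lin28a was at least 163-fold lower at E12.5. Its log2 bound moved from −7.35 to −6.64 without E9.5 cell 13, and was −7.07 without the 3 cells. Trim71, a ubiquitin ligase and itself a let-7 target, was found in 12 of 14 E9.5 cells (median 282, highest 1859 CPM) and in 3 of 20 E12.5 cells (highest 318 CPM). Its log2 ratio was −4.07, and −5.32 without E12.5 cell 6. The highest Trim71 value was that of E9.5 cell 3, and without the 3 cells the highest was 1080 CPM, the median 253 CPM and the ratio −3.55.

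Hmga2 (chr10:120361268-120476469), a chromatin protein that bends DNA, ran from 35.8 to 2389 CPM at E9.5 with a median of 1137 CPM. At E12.5 it was found in 10 of 20 cells, with a median of 38.6 and a highest value of 899 CPM. The ranges overlapped, but the E9.5 median exceeded every E12.5 cell. The highest value was that of E9.5 cell 8, and the highest of the other 11 was 2053 CPM. The log2 ratio of −2.78 was −2.71 without the 3 cells and moved by less than 1.5-fold when any cell was left out. Prtg, a receptor of the immunoglobulin superfamily, was found in 12 of 14 E9.5 cells (median 358 CPM, highest 1846 CPM) and 5 of 20 E12.5 cells (highest 317 CPM). Its ratio was −3.60, and −4.27 without E12.5 cell 14. The highest value was again that of E9.5 cell 3, and without the 3 cells the highest was 689 CPM, the median 227 CPM and the ratio −3.04. Crabp2, a carrier of retinoic acid whose 3′ UTR holds no CTACCTC, was like Lin28a in this, with 9 of 14 cells and a mean of 65.3 CPM at E9.5, no count at E12.5, and a level at least 179-fold lower (at least 164-fold without the 3 cells). Not every member was apart: the DNA methyltransferase Dnmt3a was at 303 and 225 CPM on the mean, found in 13 of 14 and 18 of 20 cells.

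**Figure D3:**
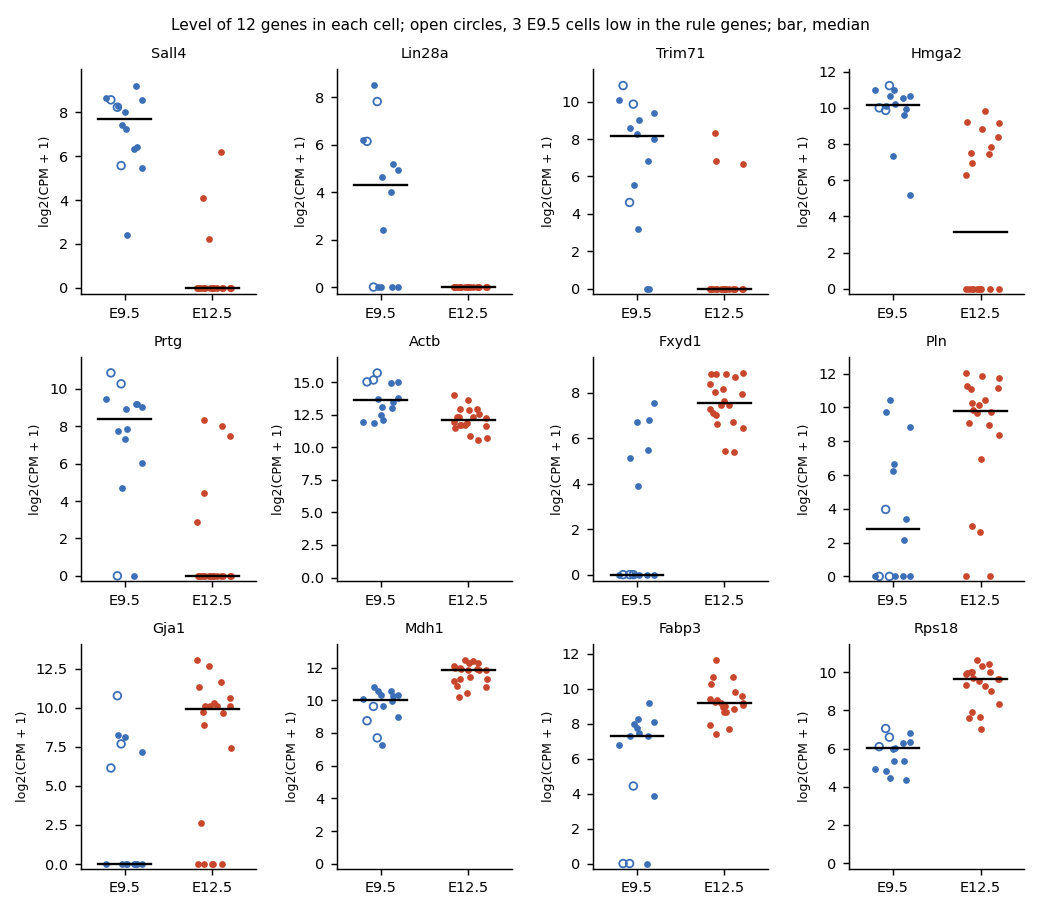
Level of 12 genes in each C cell as log2(CPM + 1), with E9.5 on the left and E12.5 on the right of each panel, bars at the medians and open circles for E9.5 cells 3, 5 and 8. Sall4 and Hmga2 were found in all 14 E9.5 cells, Lin28a in none of the 20 E12.5 cells, and Rps18 ran from 19.4 to 131 CPM at E9.5 and from 129 to 1584 CPM at E12.5.

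Respiration was the broadest difference in the other direction. Complex I, which passes electrons from NADH into the respiratory chain, had 19 of 36 genes 2-fold or more higher at E12.5 and none lower, with a median of 1.02. Without the 3 cells 12 of 36 were 2-fold higher and the median was 0.90. Its summed level ran from 3925 to 11218 CPM at E9.5 (median 6789) and from 6691 to 20472 CPM at E12.5 (median 14464). The ranges overlapped, but every E12.5 cell other than cells 2, 5 and 6 exceeded the highest E9.5 cell. The medians of the other complexes lay on the same side. Of 14 genes of complexes II and III 4 were 2-fold higher (median 0.94), of 13 of complex IV 9 (median 1.14), and of 19 of complex V with the ADP/ATP carriers 9 (median 0.86), and none of these genes was 2-fold lower. Without the 3 cells the genes 2-fold higher were 3, 5 and 5, and the medians 0.77, 0.87 and 0.65, so that the 3 of 14 genes of complexes II and III were a share close to the 19.4% of all genes. The 3 cells held less RNA for complex I than most E9.5 cells, at 4563, 3925 and 4286 CPM in cells 3, 5 and 8.

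Single subunits showed how far the cells separated. Ndufv2, a flavoprotein subunit of the NADH-binding arm of complex I, ran from 23.8 to 734 CPM at E9.5 (median 355) and from 362 to 1439 CPM at E12.5 (median 926). The median E12.5 cell lay above every E9.5 cell, and the log2 ratio was 1.58. Uqcrb of complex III ran from 112 to 709 CPM (median 496) and from 574 to 2344 CPM (median 1144), with a ratio of 1.51. Cox6a1 of complex IV, with a ratio of 1.54, had medians of 517 and 1729 CPM, but its lowest E12.5 cell at 277 CPM lay below the lowest E9.5 cell at 308 CPM. Cox6a2, the heart and muscle form of the same subunit, was found in 11 of 14 and 20 of 20 cells, and its mean stood at 140 and 424 CPM (1.60). The E9.5 cells without Cox6a2 were cells 3, 5 and 8, so all of the other 11 held it. Atp5l and Atp5h, subunits of ATP synthase, had ratios of 1.88 and 1.38. For Atp5h the E9.5 cells held 137 to 507 CPM (median 343) and the E12.5 cells 322 to 1197 CPM (median 891). The difference was not uniform over the chain. Sdha, the catalytic subunit of complex II, was level (−0.14), Atp5b, a catalytic subunit of ATP synthase stood at 2238 and 3165 CPM (0.50), and the carrier Slc25a4 at 2674 and 3519 CPM (0.40, and 0.12 without the 3 cells).

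Promoters of these genes are shown because they carry letters known from nuclear regulators of respiration. In a window of 250 bases before to 50 after the start site (RefSeq, GRCm38.p6), the NRF1 letters (GCGCA, any base, GCGC), searched on both strands, stood in 17 of 68 complex I to V genes with a promoter in the table (25.0%). They stood in 12.8% of 4455 compared genes and 4.78% of all 27025 promoters. The GABP letters CCGGAAG stood in 17 of 68 as well, against 21.4% and 9.12%, and the estrogen-related receptor letters TCAAGGTCA in 2 of 68, against 0.269% and 0.407%. A further set of 49 contractile genes held the NRF1 letters once and the GABP letters never, but held the MEF2 letters (CTA, any 3 bases, ATAG) in 5 promoters (10.2%), against 1.46% of compared genes, while no complex I to V promoter held them. None of these windows was assayed here, and a match is not a bound site. Capitals mark the match in each stretch, which is written 5′ to 3′ on the gene's strand.
Cox6a1, NRF1 letters, chr5:115349091-115349140, minus strand: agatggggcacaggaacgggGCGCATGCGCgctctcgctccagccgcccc
Atp5h, NRF1 letters, chr11:115420031-115420080, minus strand: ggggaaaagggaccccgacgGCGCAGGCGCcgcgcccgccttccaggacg
Atp5l, GABP letters, chr9:44920926-44920975, minus strand: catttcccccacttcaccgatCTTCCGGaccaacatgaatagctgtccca
Myoz2, MEF2 letters, chr3:123034991-123035040, minus strand: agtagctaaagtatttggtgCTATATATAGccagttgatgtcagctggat

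The citrate cycle, which feeds the respiratory chain, and fatty acid oxidation stood higher with it. Of 23 citrate cycle genes 12 were 2-fold or more higher at E12.5 and none lower, with a median of 1.1 (0.98 without the 3 cells), and the summed level averaged 5671 and 12698 CPM. Mdh1 (chr11:21556692-21571934), the cytosolic malate dehydrogenase of the shuttle that brings NADH to the mitochondrion, ran from 152 to 1827 CPM at E9.5 (median 1031). At E12.5 it ran from 1186 to 5585 CPM (median 3743), a log2 ratio of 1.82. The E12.5 median exceeded every E9.5 cell. Mdh2, the mitochondrial form, had a ratio of 0.75, and Idh3a, a subunit of isocitrate dehydrogenase, 0.39. Of 23 genes of fatty acid oxidation 10 were 2-fold higher and 1 lower (median 0.89, and 0.99 without the 3 cells). Fabp3 (chr4:130308738-130315463), the heart fatty acid binding protein, was found in 11 of 14 E9.5 cells at up to 573 CPM (median 159) and in all 20 E12.5 cells at 169 to 3198 CPM (median 581). Its mean was 4.95-fold higher at E12.5, and 1.97 on the log2 scale without E9.5 cells 3, 5 and 8, while the E9.5 cells without Fabp3 were 3, 5 and 11. The 1 gene lower was Decr1, a reductase for unsaturated fatty acids, whose ratio of −1.16 was −0.38 without E9.5 cell 14.

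The glycolysis list was close to level. Of 19 genes 2 were 2-fold higher and none lower (1 and 2 without the 3 cells), the median was −0.23, and the summed level averaged 14275 and 14540 CPM. Its members differed in kind. Ldhb, the lactate dehydrogenase subunit typical of heart, was found in 11 of 14 E9.5 cells at up to 838 CPM (median 290) and in all 20 E12.5 cells at 439 to 2487 CPM (median 1228), a ratio of 2.12 (1.77 without the 3 cells). Ldha, the subunit typical of glycolytic tissue, stood at 3227 and 2548 CPM (−0.34). Hexokinase 2 (Hk2) was found in all 14 E9.5 cells but 14 of 20 E12.5 cells, with means of 1027 and 526 CPM (−0.96). Pgam2, the muscle phosphoglycerate mutase, stood at 435 and 871 CPM (1.00, and 0.65 without the 3 cells), and Aldoa at 3935 and 3632 CPM.

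**Figure D4:**
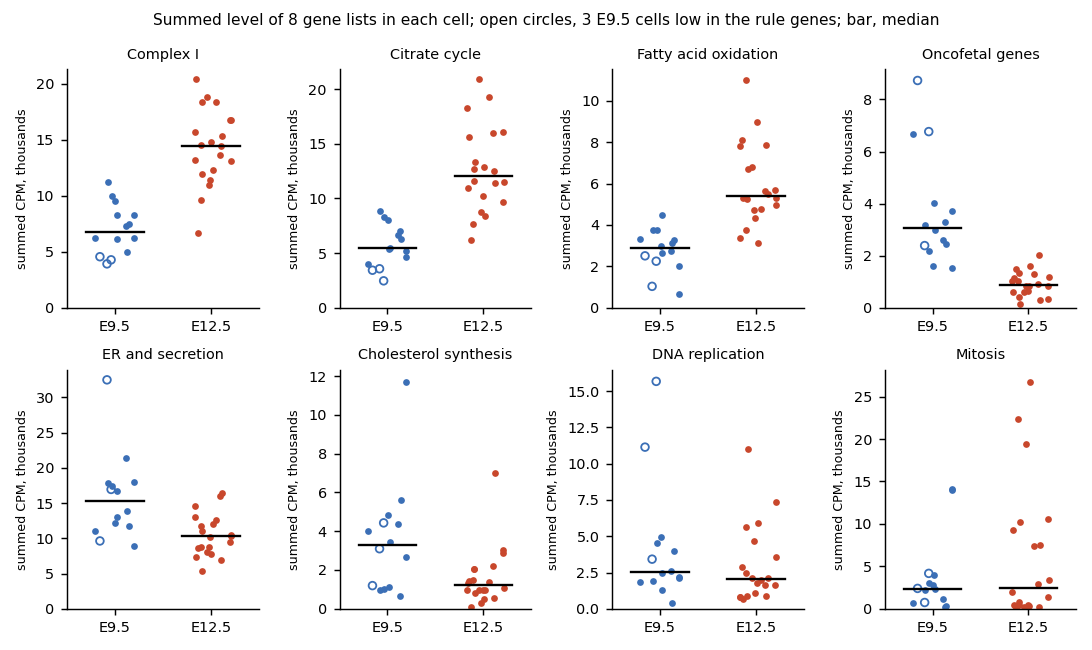
Summed level of 8 gene lists in each C cell, in units of 1000 CPM, with bars at the medians and open circles for E9.5 cells 3, 5 and 8. The medians of complex I are 6789 CPM (E9.5) and 14464 CPM (E12.5), while mitosis runs from 206 to 14133 CPM and from 141 to 26768 CPM with like medians of 2342 and 2441 CPM.

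Metabolic regulators had 6 of 11 genes 2-fold higher and none lower (median 1.43, and 1.05 without the 3 cells). Ppargc1a, the coactivator of mitochondrial biogenesis, was found in 9 of 14 E9.5 cells (highest 231 CPM) and 18 of 20 E12.5 cells (highest 803 CPM), with means of 63.1 and 226 CPM. It had no count in E9.5 cells 3, 5 and 8, so without them it was found in 9 of 11 E9.5 cells. Prkaa2, a catalytic subunit of the energy sensor AMPK, stood at 70.4 and 220 CPM (1.64). Hif1a, the hypoxia factor, stood at 318 and 222 CPM (−0.52). Mitochondrial ribosome proteins, which translate the genes of the mitochondrial genome, were higher by less (median 0.44, 19 of 74 genes 2-fold higher and 1 lower). The lower gene was Mrpl3, with medians of 37.9 and 4.22 CPM (−2.39).

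The contractile lists had medians above that of all genes with all C cells counted, and lower medians without the 3 E9.5 cells, a direction that follows from choosing those cells by low Ttn, Actc1, Myh6 and Tnnt2. The medians were 0.51 for 17 thick filament genes and titin, 0.40 for 20 thin filament genes and 0.53 for 21 genes of the Z-disc and costamere. Without the 3 cells they were 0.17, 0.06 and 0.31, against 0.05 for all genes. The genes 2-fold higher and lower were then 3 and 1 of the thick filament, 4 and 4 of the thin filament and 5 and 2 of the Z-disc and costamere, against 5 and 0, 6 and 4, and 7 and 2 with all cells. The thin filament list was thus like all genes without the 3 cells, and the summed level of the Z-disc list was level, with means of 10422 and 10443 CPM. Actc1, the cardiac actin and by counts the most abundant RNA at E12.5, stood at 12736 and 17127 CPM (0.43, and 0.08 without the 3 cells), and Ttn at 5650 and 8066 CPM (0.51 and 0.17). The myosin heavy chains lay in opposite directions. Myh6, the α chain whose promoter drives the reporter, had a median of 2973 CPM (highest 5909) at E9.5 and 725 CPM (237 to 5535) at E12.5, a ratio of −0.69 (−1.04 without the 3 cells). Myh7, the β chain, had a median of 140 CPM (highest 3473) at E9.5 and 1790 CPM (13.5 to 4250) at E12.5, a ratio of 1.14 (0.79). Both chains were spread widely within each stage, and the ranges overlapped almost fully.

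Troponins and light chains differed by form. Tnnt1, the slow skeletal troponin T (chr7:4504569-4515975), was found in 6 of 14 E9.5 cells at up to 39.1 CPM and in 17 of 20 E12.5 cells at up to 552 CPM (median 90.0), a log2 ratio of 3.98. Tnni3, the adult cardiac troponin I, had medians of 497 and 1070 CPM and a ratio of 1.46 (1.11 without the 3 cells), whereas the embryonic form Tnni1 stood at 3179 and 4109 CPM (0.37 and 0.04). Tnnt2 and Tnnc1, the cardiac troponins T and C, had ratios of 1.06 and 1.29 (0.72 and 0.94). Myl2, the ventricular regulatory light chain, was found in 9 of 14 E9.5 cells (median 150, highest 2567 CPM) and in 14 of 20 E12.5 cells (median 2979, highest 5846 CPM), a ratio of 1.98 (1.63). Without the 3 cells, which had no Myl2 count, it was found in 9 of 11 E9.5 cells, a higher share than at E12.5. The atrial light chains Myl7 and Myl4 stood near level, at 0.13 and 0.48 (−0.22 and 0.13 without the 3 cells, so Myl7 changes sign). Tpm4, a cytoskeletal tropomyosin (chr8:72135288-72153142), went the other way. It was found in all 14 E9.5 cells at 9.01 to 1194 CPM (median 365) and in 10 of 20 E12.5 cells at up to 373 CPM (median 4.48), a ratio of −2.56. Csrp3, the muscle LIM protein of the Z-disc, had medians of 453 and 1297 CPM and a ratio of 1.60, and the small heat shock protein Cryab 509 and 1170 CPM and 1.01 (1.25 and 0.66 without the 3 cells).

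Ion channels and calcium handling held some of the clearest single genes. Of 8 ion channel and pump genes 5 were 2-fold higher and none lower (median 1.58, and 1.23 without the 3 cells, but 0.50 with no filter on low values). Fxyd1, phospholemman, a regulator of the sodium pump and of the sodium-calcium exchanger, was found in 6 of 14 E9.5 cells at up to 189 CPM and in all 20 E12.5 cells at 40.8 to 470 CPM (median 189). Its ratio was 2.74 (2.39 without the 3 cells). Atp1b1, the β subunit of the sodium pump, had medians of 153 and 459 CPM (1.54). Gja1, connexin 43 of the ventricular gap junction, was found in 6 of 14 E9.5 cells and 15 of 20 E12.5 cells, with a median of 0 and of 973 CPM and a highest E12.5 value of 8366 CPM. The ratio of 2.95 was 4.29 without E9.5 cell 5, which held 1735 CPM.

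Of 20 calcium handling genes 6 were 2-fold higher and 1 lower (6 and 3 of 23 without the 3 cells), with a median of 0.20 that turned to −0.07 in the authors' TPM. Pln, phospholamban, which restrains the calcium pump of the sarcoplasmic reticulum, was found in 8 of 14 E9.5 cells (median 6.56, highest 1412 CPM) and 18 of 20 E12.5 cells (median 876, highest 4217 CPM). The ratio was 2.65, and 3.50 without E9.5 cell 6. The pump itself, Atp2a2, had medians of 503 and 925 CPM (1.20), and the exchanger Slc8a1 stood at 1496 and 1239 CPM (−0.27). The gene 2-fold lower was Itpr1, a calcium release channel activated by inositol trisphosphate, found in 8 of 14 and 6 of 20 cells at means of 132 and 10.9 CPM. Its ratio of −3.60 was −5.88 without E12.5 cell 13.

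Chamber genes and transcription factors gave a mixed picture. The summed ventricular markers had medians of 2204 CPM in E9.5 cells and 12036 CPM in E12.5 cells, with 7 of 10 genes 2-fold higher and 1 lower (5 and 2 without the 3 cells). The atrial markers had medians of 8828 and 6039 CPM but means of 8795 and 9719 CPM, with 1 gene higher and 2 lower of 8. The E9.5 mean was 11132 CPM without the 3 cells, so that the order of the atrial means changed. At E12.5 both sums ran over a wide range, from 101 to 25834 CPM for the ventricular and from 796 to 25692 CPM for the atrial markers. Nppa, the atrial natriuretic peptide, was found in 5 of 14 E9.5 cells (highest 2597 CPM) and 8 of 20 E12.5 cells (highest 364 CPM). Its ratio of −3.48 was −2.86 without E9.5 cell 13 and −4.22 without E12.5 cell 16. Hopx, a cofactor of myocyte differentiation, had medians of 25.3 and 183 CPM (2.71), and Mef2c, a factor of early muscle differentiation, 460 and 89.3 CPM (−1.60, and −1.83 without the 3 cells). Gata6 was level at 224 and 231 CPM, and Tbx20 stood at 349 and 570 CPM (0.71). Nkx2-5 was low at both stages, found in 9 of 14 and 6 of 20 cells at up to 37.4 and 86.9 CPM. Tbx18 was found in 3 of 14 and 11 of 20 cells, with a ratio of 2.05 that was 4.34 without E9.5 cell 11, the cell holding 302 CPM. Over 16 core factors 4 were 2-fold higher and 3 lower, with a median of 0.13 that turned to −0.08 without the 3 cells and −0.02 in TPM.

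Cholesterol synthesis and, less firmly, the secretory pathway stood lower at E12.5 in the C cells. Of 30 genes of the endoplasmic reticulum and secretion 12 were 2-fold lower and none higher, with a median of −0.69. Without the 3 cells only 4 of 29 were 2-fold lower and 1 higher, a share of lower genes no higher than among all genes, although the median was still −0.51. With all cells the summed level averaged 15804 and 10471 CPM. Pdia4, a disulfide isomerase, ran from 22.1 to 1139 CPM at E9.5 (median 232) and up to 361 CPM at E12.5 (median 11.9), a ratio of −2.17 (−1.54). Kdelr2, a receptor that returns resident proteins to the reticulum, had medians of 1853 and 1203 CPM (−0.86). The chaperone Canx was level at 4057 and 3743 CPM. Of 14 cholesterol genes 6 were 2-fold lower and none higher (median −0.79, and −1.09 without the 3 cells), and the summed level averaged 3509 and 1605 CPM. The medians of this sum were 3276 and 1210 CPM. The highest cells were E9.5 cell 2 at 11716 CPM and E12.5 cell 20 at 7002 CPM. Hmgcs1, an early enzyme of the pathway, had medians of 758 and 186 CPM (−1.04). Sc5d, a late desaturase, was found in all 14 E9.5 cells at 81.1 to 914 CPM (median 239) and in 15 of 20 E12.5 cells at up to 292 CPM (median 68.1), a ratio of −1.87. Cyp51, the lanosterol demethylase (chr5:4080674-4104697), was found in 9 of 14 and 5 of 20 cells, and its mean was 21.9-fold lower at E12.5.

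Cytoskeletal genes lay on both sides. Actb, the cytoplasmic β actin (chr5:142903115-142907976), had by counts the highest mean of all genes 2-fold lower. It ran from 3770 to 53376 CPM at E9.5 (median 12565) and from 1487 to 16637 CPM at E12.5 (median 4368), a ratio of −1.80 (−1.24 without the 3 cells). The ranges overlapped, while the E9.5 median lay above all but 2 of the 20 E12.5 cells. Actg1, the γ actin of the same filaments, did not share this difference (1431 and 1193 CPM, −0.26). Tubb5, a β tubulin, had medians of 870 and 1588 CPM (1.27), and Ncam1, an adhesion molecule, was found in 7 of 14 and 19 of 20 cells with a ratio of 2.35. Marcksl1, an actin regulator, had medians of 75.1 and 3.26 CPM (−2.34). Over 31 genes of the cytoskeleton and adhesion the median was −0.23, with 3 genes 2-fold higher and 6 lower, and without the 3 cells −0.01 over 32 genes, with 7 higher and 5 lower, shares close to those of all genes. Of 14 smooth muscle genes 7 were 2-fold lower and none higher (median −0.82), but the most abundant were closer to level: Acta2 stood at 2853 and 2026 CPM (−0.49), Tagln at 698 and 682 CPM (−0.03) and Myl9 at 827 and 1257 CPM (0.60). Tagln2 shows how 1 cell can set a ratio, since −2.74 over all cells was 0.21 without E9.5 cell 5.

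Genes of the cell cycle varied widely among the cells of each stage. The summed level of the mitosis list ran from 206 to 14133 CPM at E9.5 and from 141 to 26768 CPM at E12.5, with medians of 2342 and 2441 CPM. Of 42 mitosis genes 16 were 2-fold higher on the mean and 1 lower (median 0.73). Most rested on few cells. Top2a, a topoisomerase of dividing cells, was found in 6 of 14 and 10 of 20 cells with a ratio of 1.41 that was 2.69 without E9.5 cell 4, and Ccnb1, the cyclin of mitotic entry, in 6 of 14 and 9 of 20 with a ratio of −0.48. The Ccnb1 ratio was 0.77 without E9.5 cell 2 and −1.28 without E12.5 cell 13. Ccna2, a cyclin of S phase and G2, was found in 6 of 14 and 10 of 20 cells with a ratio of 1.07, which was 0.55 without E12.5 cell 2 and 1.74 without E9.5 cell 13. Cdc6, which helps load the replicative helicase, was found in 5 of 14 and 2 of 20 cells, too few to pass the filter, with a mean of 55.1 CPM at E9.5. Its ratio of −2.71 ran from −4.96 to −1.91 when any 1 cell was left out, but was −0.06 without the 3 E9.5 cells, all of which held it. The list of cyclins and regulators had 4 of 18 genes 2-fold lower and 2 higher (3 and 3 of 16 without the 3 cells), with a median of −0.50 (−0.32), and its summed level averaged 5384 and 3260 CPM. DNA replication genes stood the other way, with 8 of 32 2-fold lower and 3 higher (median −0.59). That median was 0.08, with 9 genes 2-fold higher and 2 lower of 31, without the 3 E9.5 cells, of which cells 3 and 8 held 11144 and 15678 CPM of these RNAs, against at most 4913 CPM in the other 11. Mcm4, a subunit of the replicative helicase, had a ratio of −1.12 with the 3 cells and −0.01 without them. Cdkn1c, the imprinted inhibitor of cyclin-dependent kinases also called p57, had medians of 2025 and 778 CPM (−1.55, and −1.27 without the 3 cells), and Cdk4 507 and 264 CPM (−0.65).

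Imprinted growth genes were lower on the whole. Of 17 genes 6 were 2-fold lower and 1 higher (median −0.56, and −0.52 without the 3 cells), and the summed level averaged 15504 and 9267 CPM. Mest, a gene of the mesoderm expressed from the paternal copy, was found in 9 of 14 E9.5 cells (median 639, highest 8813 CPM) and 14 of 20 E12.5 cells (median 28.9, highest 1954 CPM), a ratio of −2.79. Igf2r, which clears the growth factor Igf2, stood at 5491 and 3717 CPM (−0.56). The 1 gene higher was Grb10, an adaptor that dampens insulin-like signalling, with medians of 293 and 792 CPM and a ratio of 1.70. H19 was level over all cells (724 and 718 CPM), yet its ratio was 0.87 without E9.5 cell 5, which held 5029 CPM, and 1.24 without the 3 cells.

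Of 25 growth factor signalling genes 9 were 2-fold lower and 6 higher (median −0.45). Jag1, a ligand of Notch receptors, was found in all 14 E9.5 cells (median 758, highest 4929 CPM) and 14 of 20 E12.5 cells (median 179, highest 1578 CPM), a ratio of −2.04. Spry2, a feedback inhibitor of receptor tyrosine kinases, had medians of 888 and 624 CPM (−1.27). Vegfa was low at both stages but higher at E12.5, at 4.58 and 18.0 CPM (1.98). Of 20 extracellular matrix genes 3 were 2-fold higher and 4 lower, with a median of −0.07 that was 0.39 without the 3 cells, where 5 of 19 were higher and 5 lower. Vcan, the proteoglycan of the early cardiac jelly, was found in all 14 E9.5 cells (median 995 CPM) and in 17 of 20 E12.5 cells (median 141 CPM), a ratio of −1.53 (−1.65). Fn1, fibronectin, had a ratio of −3.43 that was −1.38 without E9.5 cell 5, which held 5006 CPM.

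A few genes of general machinery stood apart from their lists. Rps18 (chr17:33951998-33955665), a protein of the small ribosomal subunit, ran from 19.4 to 131 CPM at E9.5 (median 63.4) and from 129 to 1584 CPM at E12.5 (median 792), a log2 ratio of 3.63. The ranges overlapped only in E9.5 cell 5, at 131 CPM, and E12.5 cell 17, at 129 CPM. The cytosolic ribosome list as a whole did not share this: of its 74 genes, Rps18 included, 5 were 2-fold higher and none lower (8 and none without the 3 cells), and the median was 0.30. Rpl41 stood at 1259 and 1392 CPM and Rpl4 at 1562 and 1681 CPM. Rps18 stood much less apart in the cells of other title prefixes given below, so its value is uncertain. Ribosomal protein genes have many near-identical pseudogenes, and any part of split reads in this value was not tested. Among translation factors, the helicase Eif4a1 had medians of 723 and 287 CPM (−1.17), while Eef1a1 was level at 6088 and 6322 CPM. The nuclear long noncoding RNA Malat1 had medians of 5272 and 10862 CPM (1.40), and the ribosomal RNA precursor Rn45s 4476 and 12399 CPM (1.21). Both are among the genes with the highest counts. H2afy, the macroH2A histone, had medians of 367 and 57.4 CPM (−2.19), and Hmgb2, a chromatin protein of dividing cells, 40.3 and 47 CPM with a highest E12.5 cell of 1295 CPM (2.22). Antioxidant enzymes were level as a list (24 genes, median 0.01, with a sign that changes with scaling). The immediate early and heat shock list, which reports handling stress in many preparations, had 5 of 21 genes 2-fold lower at E12.5, a share near the 18.3% of all genes, and none higher, with a median of −0.54 (−0.41 without the 3 cells).

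Outside the lists, most of the genes with the largest ratios given here had counts in few cells of the lower group. They were picked for a high mean and many cells in the higher group, and for a direction that held with any 1 cell left out. These traits therefore follow from the choice. Herc3, a ubiquitin ligase of the HERC family (chr6:58831455-58920398), had no count in the 14 E9.5 cells, which allows a share of cells with a read of up to 23.2%, under the same limits as for Lin28a. It was found in 12 of 20 E12.5 cells with a median of 35.1 and a highest value of 1106 CPM, at least 327-fold higher. Ankrd29 had no count at E9.5 either and was found in 11 of 20 E12.5 cells at a mean of 105 CPM, at least 196-fold higher. Sirt3, the mitochondrial deacetylase, was found in 1 of 14 E9.5 cells, cell 13 at 15.8 CPM, and in 16 of 20 E12.5 cells at up to 590 CPM. Its ratio was 6.79. Without that cell the E9.5 group had no count, and only a lower bound could be given, 7.74 on the log2 scale. Ndrg4, a gene of heart and brain, was found in 4 of 14 cells at up to 58.7 CPM and in 14 of 20 at up to 1336 CPM (median 49.7), a ratio of 4.69 that no single cell moved by 1.5-fold. In the other direction, Mme, a membrane metalloprotease (chr3:63295211-63383713), was found in 8 of 14 E9.5 cells (highest 199 CPM) and in 1 of 20 E12.5 cells at 9.25 CPM, so its mean was 112-fold lower. Anxa3, an annexin, was found in 8 of 14 E9.5 cells (highest 450 CPM) and in 1 of 20 E12.5 cells, with a ratio of −7.27. Without that cell, E12.5 cell 7, the group had no count, and the log2 bound was −8.17. Slc20a1, a phosphate transporter, was found in 7 of 14 cells at up to 889 CPM and in 8 of 20 at up to 44.9 CPM, a ratio of −4.79. The intervals on the share of cells were wide, at 28.9 to 82.3% against 0.127 to 24.9% for Mme. They are no test of a difference, since Mme was picked for its large ratio.

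Most genes apart by 2-fold stood outside the lists. Of 5201 such genes compared, 868 were 2-fold or more higher and 1007 lower, and those described here are among the 16 in each direction with the highest means, chosen after their values were seen. Dpysl2, a cytoskeletal protein best known from growing axons, ran from 2239 to 9661 CPM at E9.5 (median 4954) and from 26.6 to 3171 CPM at E12.5 (median 1822). The lowest E9.5 cell thus lay above the median E12.5 cell, and the ratio was −1.83 (−1.78 without the 3 cells). Fkbp1a, the immunophilin FKBP12 that binds ryanodine receptors, ran from 178 to 2117 CPM (median 1252) and from 6.15 to 958 CPM (median 409), a ratio of −1.37. The long noncoding RNA Tug1 had medians of 2093 and 783 CPM (−1.35), the G protein subunit Gnb1 1505 and 925 CPM (−1.40), and Tacc1, a protein of the centrosome family TACC, 535 and 117 CPM (−1.68). The zinc finger factor Klf13 was found in 13 of 14 cells at up to 2158 CPM and in 14 of 20 cells at up to 1063 CPM (−1.62). Without the 3 cells these 4 ratios were −1.41, −1.62, −1.46 and −1.31.

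The unlisted genes that stood higher at E12.5 were of mixed function. Gbas, a mitochondrial protein of the NIPSNAP family, was found in 13 of 14 E9.5 cells at up to 2162 CPM (median 859) and in all 20 E12.5 cells at 1079 to 5189 CPM (median 2477), a ratio of 1.39 (1.12 without the 3 cells). The pore proteins of the outer membrane Vdac2 and Vdac3 had medians of 353 and 644 CPM (1.03) and of 167 and 442 CPM (1.24). Nfib, a transcription factor of the nuclear factor I family, was found in 7 of 14 E9.5 cells (median 19.4, highest 840 CPM) and in all 20 E12.5 cells at 82.7 to 1854 CPM (median 691). Its ratio of 2.20 was 2.54 without the 3 cells. Gpc1, a heparan sulfate proteoglycan of the cell surface, had medians of 8.77 and 794 CPM (2.66, and 2.42 without the 3 cells), and Tmx4, a thioredoxin-related membrane protein, 33.3 and 891 CPM (2.39 and 2.09). Btg1, a regulator that restrains proliferation, had medians of 513 and 1160 CPM (1.53 with and without the 3 cells), and the R-spondin receptor Lgr4 626 and 1766 CPM (1.3 and 1.14). All these genes overlapped between the stages.

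The same stages were also captured in cells whose titles start with N530 (E9.5, 28 cells) and N523 (E12.5, 8 cells), which the C cells do not include and which were read to another depth. Their values are set beside those of the C cells, without a test. Of 6504 genes compared there, 1392 were 2-fold or more higher at E12.5 (21.4%) and 2667 lower (41%), with a median ratio of −0.44 against −0.01 in C cells. Of 5414 genes compared in both, 886 were 2-fold higher in C cells and 1176 in N cells. They shared 267, which is 30.1% of the former and 22.7% of the latter, while 311 of the 886 were 2-fold lower in N cells. Of 942 genes 2-fold lower in C cells and 2045 in N cells, 456 were shared (48.4% and 22.3%), and 161 of the 942 were 2-fold higher in N cells. By sign alone, 48.6% of the higher C genes were higher in N cells, against 43.2% of all genes compared in both, and 66.8% of the lower C genes were lower, against 56.8%.

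Some lists stood alike in both and others did not. The medians in N cells were 1.22 for complex I, 1.03 for complex IV, 0.89 for fatty acid oxidation, 0.57 for the citrate cycle and −2.13 for the oncofetal genes, on the same side as in C cells. Cholesterol synthesis had −0.73 in N cells, with 6 of 15 genes 2-fold lower and 1 higher. The endoplasmic reticulum list had −0.48, with 9 of 29 lower and 5 higher. Neither share of lower genes exceeded the 41% of all genes there. The log2 ratios of the summed levels were −0.35 and 0.28. Mdh1 had a ratio of 1.76 in N cells against 1.82, Fabp3 1.26 against 2.31, Fxyd1 3.02 against 2.74 and Hmga2 −2.13 against −2.78. Ion channels and pumps had a median of −2.03 in N cells (7 of 13 genes 2-fold lower and 3 higher) against 1.58 in C cells. Metabolic regulators had −2.99 (7 of 11 lower and 0 higher) against 1.43. Mitosis had −0.50 against 0.73, close to the −0.44 of all genes in N cells. Its 17 of 47 genes 2-fold lower there, with 8 higher, were a share no higher than the 41% of all genes. Immediate early and heat shock genes also lay on opposite sides, at 0.54 in N cells, where 11 of 26 were 2-fold higher and 3 lower, against −0.54 in C cells. Contractile and calcium genes also stood apart between the sets, at −0.79 against 0.51 for the thick filament and titin, −0.56 against 0.53 for the Z-disc and costamere and −0.79 against 0.20 for calcium handling, while the thin filament had 0.53 against 0.40. In N cells 7 of 16 thick filament, 8 of 20 Z-disc and 9 of 21 calcium handling genes were 2-fold lower. These shares were near the 41% of all genes there, and 2, 6 and 5 genes were 2-fold higher. Single genes on opposite sides were Ttn (−2.70 in N cells against 0.51), Malat1 (−1.33 against 1.40), Actb (0.30 against −1.80), Mest (0.90 against −2.79) and Nppa (1.91 against −3.48, or −2.86 and −4.22 without E9.5 cell 13 or E12.5 cell 16). Of the unlisted genes, Nfib stood at 2.12 in N cells against 2.20, Gpc1 at 2.01 against 2.66 and Klf13 at −2.19 against −1.62, while Dpysl2 stood at −0.30 against −1.83, Fkbp1a at 0.02 against −1.37 and Gnb1 at 1.46 against −1.40. Rps18, the gene that nearly parted the C cells, had a ratio of 0.35 in N cells. The part of depth in these values was not tested.

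**Figure D5:**
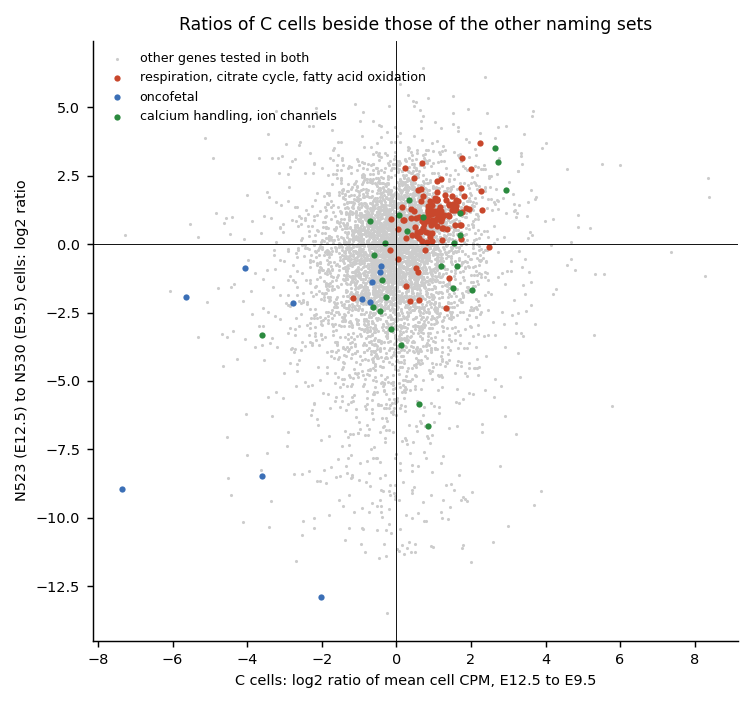
Log2 ratio of mean CPM, E12.5 to E9.5, of the 5414 genes compared in both, in C cells (x axis) and in N523 against N530 cells (y axis), 1 point per gene, with 3 groups of lists coloured. Genes of respiration, citrate cycle and fatty acid oxidation lie mostly at upper right and oncofetal genes at lower left, while calcium handling and ion channel genes lie on both sides of 0 on the y axis.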

How the data were processed

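Single-cell RNA of αMHC-GFP+ mouse heart cells was measured, with each deposited sample holding 1 cell. The authors mapped reads with OLego and deposited raw read counts per gene symbol (23337 symbols, 123 cells) made with featureCounts. The authors also deposited TPM, computed from the counts by custom scripts, and the submitters' processing notes name GRCm38 and mm10. No unique molecular identifiers were used, so the counts are of reads. From the counts, CPM was computed per cell by its own total for the 34 C cells. Groups came from the labels. Genes whose stage means averaged 10 CPM or more, with 1 count or more in 25% or more of the 34 cells, were compared by the log2 ratio of mean CPM, with no pseudocount. A group at 0 counts was set to a floor of 3 counts over its pooled total (0.537 CPM in E9.5 cells and 0.365 CPM in E12.5 cells). With 1 sample per stage no test was run. Shares of cells carry exact Clopper-Pearson intervals, which cover the drawing of cells from the pooled sample only. Genes were named by rule: the 15 largest ratios and 10 largest differences in share of cells per direction, the most abundant, and in each of 36 lists the 3 most abundant and 2 with the largest ratios per direction, plus genes the study discusses. The 15 were taken among genes at 50 CPM or more on the mean of the higher stage and found in 50% or more of its cells. Their direction also had to hold without the 3 E9.5 cells, in pooled CPM and with any 1 cell left out. Myh7, Tnnt2, Tnnc1, Tnni3, Mbnl3 and Efna5 were chosen after their values were seen. Some items are not reported here. The members and lists were chosen with earlier results of these data known. Alternatives were pooled CPM, TPM, trimmed means, edgeR 4.0.16 TMM factors, thinning to 100000 counts, other filters and leaving out cells. Scripts (Python 3.11.15, numpy 2.4.6, pandas 2.3.3, scipy 1.17.1) were tested on simulated data. RefSeq and GENCODE tables of GRCm38 gave coordinates and sequences.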

Additional observations from a re-analysis of the deposited data

How the results depend on the processing

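The number of genes 2-fold or more apart followed the filter on low values: 3019 higher and 3882 lower with no filter, 493 and 514 at a minimum of 50 CPM, 490 and 417 where a gene had to be found in 50% of cells, and 664 and 647 where found meant 10 counts. At 4-fold it was 321 and 350. The shares of the genes compared moved too, the lower one to 30.8% with no filter, and both to 13.7 and 11.7% in 50% of cells, where higher genes outnumbered lower ones. Leaving out 1 cell at a time gave 1004 to 1082 higher and 1048 to 1120 lower. The counts stayed within 1.5 times under pooled CPM, trimmed means (1177 and 1175), thinning (934 and 961), TMM factors (977 and 1194, median of all genes −0.07), deposited TPM (756 and 1231, median −0.18), without titles ending in "no" (1293 and 1502) and, chosen after seeing the data, without the 3 E12.5 cells shallower than any E9.5 cell (1119 and 1229). With no filter the median of all genes was −0.14. Of the list medians, that of the oncofetal genes was −1.49 without the 3 E9.5 cells, −1.47 at a minimum of 50 CPM, −0.81 in 50% of cells, −1.47 with 10 counts, and −2.89 to −1.23 leaving out 1 cell. With no filter growth factor signalling had −1.17 and extracellular matrix −1.08. The causes of these moves were not tested. The other 497 list values moved by less than 1 SD of the log2 summed level between cells, a bar that ran from 0.36 to 4.81 over the lists (median 0.72) and is too wide to show a move for lists such as the thick filament. Set against a bar of 1.5-fold, 12 of the 504 list values moved, in 7 lists. Beside those given, they were, with no filter, ion channels and pumps (0.50) and the list of creatine kinase, myoglobin and oxygen (−0.18 to 0.42), then DNA replication without the 3 E9.5 cells (0.08), and, on thinning, chamber and conduction genes (0.67 to 1.33) and oncofetal genes (−1.82). The sign changed in 39 values of 11 lists, all with a median within 0.59 of 0. Titles ending in "no" were 1 of 14 E9.5 cells and 9 of 20 E12.5 cells, and their meaning is not given in the sources used here. At these depths 3 counts over a group is the least that a ratio can be set against, and the share of cells has wide intervals. No paired analysis was possible because the labels give no number that ties E12.5 cells to E9.5 cells.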
